A study of Mus musculus with 2 samples.

Results

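The genes described here are 6 members of the chemokine system that effector lymphocytes use, out of 32285 features in the count matrices. They are the ligands Ccl3, Ccl4, Ccl5 and Xcl1 and the receptors Ccr1 and Xcr1, and each symbol matched 1 row. They were chosen by gene name and not by a cut-off on a measured value, but with earlier results of these data known. The data are 2 droplet single-cell libraries from dissociated tumours grown from MC38, a murine colon cancer line, sequenced to ask how loss of Mbtps1 changes the cells around the tumour. One library carries the label Mbtps1 KD and is called knockdown here, although the series text calls that group a knockout. The other, labelled Mbtps1 WT, is called control. The sources used here do not say how Mbtps1 was altered, how many tumours or clones went into a library, or the strain, sex and age of the hosts.

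Chemokines are small secreted proteins that guide leukocytes by binding G-protein-coupled receptors. Ccl3, Ccl4 and Ccl5 encode inflammatory CC chemokines that T cells, NK cells and myeloid cells make on activation. CCL3 and CCL5 bind CCR1, a receptor of myeloid cells. Xcl1 encodes lymphotactin, made mainly by NK cells and activated CD8 T cells, and its receptor XCR1 marks type 1 conventional dendritic cells (cDC1), which cross-present antigen to CD8 T cells.

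Values are UMIs, the unique molecular identifiers that count captured RNA molecules, summed over the cells of a class in a library and given as CPM, counts per 1000000 UMIs of that sum. With 1 library per group there was no test, because cells of 1 library are not replicates. A ratio is the knockdown CPM over the control CPM. Each interval is a 95% exact interval that covers counting error only and treats UMIs as independent. It leaves out the spread between cells, which matters where few cells hold most of the UMIs. A difference between tumours and a difference between groups cannot be told apart. After the removal of empty droplets and doublets, 15296 knockdown cells with a median of 5233 UMIs and 10996 control cells with a median of 8219 UMIs remained. That is more than the labels say were loaded, and 43 barcodes occurred in both libraries. Classes were named from marker genes and carry the ending "-like". The largest class had under 20 CPM of both Xist and Ptprc in each of its 8 clusters but had only 1 or 2 of the 10 tumour markers per cluster, so it is called by its features, Xist-low and Hmga2-rich. In these cells Mbtps1 itself stood at 12.3 CPM in the knockdown and 28.8 CPM in the control (ratio 0.425, interval 0.397 to 0.454). In macrophage-like cells it stood at 18.8 CPM in the knockdown and 19.1 CPM in the control (ratio 0.987, interval 0.861 to 1.13).

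The ligand genes Ccl3, Ccl4 and Ccl5 lie on mouse chromosome 11 in GENCODE vM21 on GRCm38, all protein-coding. Ccl3 spans chr11:83647844-83649355 on the minus strand, Ccl4 spans chr11:83662584-83664683 on the plus strand and Ccl5 spans chr11:83525778-83530518 on the minus strand. Xcl1 spans chr1:164931644-164935527, Ccr1 spans chr9:123962124-123968692 and Xcr1 spans chr9:123852315-123862029, each on the minus strand. No source names the build of the count matrices, so these positions describe the genes and were not used in counting. Ccl3 and Xcl1 are shown by the 250 bases before their start in the RefSeq promoter table (GRCm38.p6), since both peaked in the same small CD8 T cluster described further on. The Ccl3 window is chr11:83649379-83649628 and the Xcl1 window is chr1:164935523-164935772, both read on the minus strand. Capitals mark GGAAA on either strand, the core letters bound by NFAT, a calcium-driven factor of T cell activation.
Ccl3: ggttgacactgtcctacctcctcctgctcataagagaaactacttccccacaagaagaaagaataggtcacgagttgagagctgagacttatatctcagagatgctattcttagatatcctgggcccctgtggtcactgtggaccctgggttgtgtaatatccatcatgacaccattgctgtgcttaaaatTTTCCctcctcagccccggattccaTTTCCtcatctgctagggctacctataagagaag
Xcl1: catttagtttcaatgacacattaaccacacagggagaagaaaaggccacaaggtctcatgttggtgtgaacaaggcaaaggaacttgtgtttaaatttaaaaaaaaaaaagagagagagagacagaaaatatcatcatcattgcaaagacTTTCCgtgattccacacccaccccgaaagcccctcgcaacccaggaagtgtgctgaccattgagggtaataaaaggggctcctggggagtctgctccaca
The Ccl3 window held 2 copies of GGAAA and the Xcl1 window held 1, and 55.6% of the 27025 promoters listed held at least 1 copy in the same window. Each window also held 1 copy of TGTGGT, the Runx letters, which 14.2% of promoters held. Neither window held TATAAA (the TATA box, in 13.0% of promoters), TGANTCA (AP-1, 6.87%), TTCNNNGAA (STAT, 7.18%), TGACG (CRE, 17.9%) or the interferon-stimulated response element, ISRE (3.04%). All were searched on both strands, and GGAAA can overlap the ISRE letters. A match is only a description of these letters.

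Ccl5 was the ligand that differed most between the libraries in CD8 T-like cells. It stood at 4583 CPM in the knockdown (13763 UMIs in 1283 cells) and 2118 CPM in the control (2740 UMIs in 343 cells), with a ratio of 2.16 and an interval of 2.08 to 2.25. The knockdown was higher in 5 of 6 CD8 T-like clusters and lower in the other. In cluster L5 it was at 7509 CPM in 230 knockdown cells and 1645 CPM in 31 control cells (ratio 4.56). In cluster L9 it was at 2877 CPM in 49 knockdown cells and 4561 CPM in 18 control cells (ratio 0.63). When every cell was thinned to 500 UMIs, 54.6% of knockdown (51.9% to 57.4%) and 35.0% of control CD8 T-like cells (29.9% to 40.3%) held a Ccl5 UMI. Median depth was 2050 UMIs in knockdown and 3159 UMIs in control CD8 T-like cells.

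Fibroblast-like cells, a class not known as a main source of Ccl5, were read for comparison. After thinning, 12.8% of knockdown and 2.47% of control fibroblast-like cells held a Ccl5 UMI, at a median depth of 4521 UMIs in the knockdown and 8019.5 UMIs in the control. Their Ccl5 stood at 341 CPM in 179 knockdown cells and 53.7 CPM in 162 control cells, and 5 knockdown and 3 control cells held 50% of it. The 9 NK markers summed there to 113 CPM in the knockdown and 12.01 CPM in the control. Of them 2 in the knockdown and 5 in the control were at 0. Free RNA, estimated from the genes of other classes, came there to a median of 52.1% of the empty-droplet level in the knockdown and 23.9% in the control. Over 7 marker lists the estimate ran from 4.91% to 157% in the knockdown and from 6.31% to 126% in the control. Empty droplets held 641 CPM of Ccl5 in the knockdown and 536 CPM in the control. The part of these markers and of free RNA in the Ccl5 difference was not tested. Of 2 members with at least 20 UMIs over both libraries in this class, 1 was at least 1.5 times higher in the knockdown and 0 were at least 1.5 times lower, against 8.85% and 11.4% of all genes.

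Markers of other cells were also read in CD8 T-like cells. The 11 macrophage and monocyte markers summed to 908 CPM in knockdown and 759 CPM in control CD8 T-like cells, with all 11 detected in both, against 37470 CPM in knockdown and 41303 CPM in control macrophage-like cells. The 9 NK markers summed to 1147 CPM in knockdown and 1452 CPM in control CD8 T-like cells. Gzma, which is among these 9 and also on the effector list given below, alone stood at 595 CPM in the knockdown and 963 CPM in the control. Free RNA, estimated from the genes of other classes, came to a median of 16.7% of the empty-droplet level in knockdown and 8.71% in control CD8 T-like cells. Ccl5 in the empty droplets stood at 641 CPM in the knockdown and 536 CPM in the control, under both class levels. With free RNA subtracted the Ccl5 ratio was 2.37, and the part of the other markers was not tested.

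Ccl4 did not follow Ccl5 in the same cells. In CD8 T-like cells Ccl4 was at 1870 CPM in the knockdown and 1869 CPM in the control (ratio 1.001, interval 0.95 to 1.05). A Ccl4 UMI was found in 16.8% of thinned knockdown cells and 16.6% of thinned control cells. Ccl3 was at 515 CPM in knockdown and 734 CPM in control CD8 T-like cells (ratio 0.70, interval 0.65 to 0.76). Of the 5 clusters with at least 20 Ccl3 UMIs, 3 had an interval below 1 and 1 had an interval above 1, with ratios from 0.32 in L5 to 4.27 in L7. For Ccl4 the interval was below 1 in 3 of 6 clusters and above 1 in 0, with ratios from 0.15 to 1.0003. Xcl1 was at 429 CPM in knockdown and 369 CPM in control CD8 T-like cells (ratio 1.16, interval 1.05 to 1.30).

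Of the 5 members with at least 20 UMIs over both libraries in CD8 T-like cells, 1 was at least 1.5 times higher in the knockdown and 0 were at least 1.5 times lower. Of all 9978 genes with that many UMIs, 13.0% were at least 1.5 times higher and 5.74% were at least 1.5 times lower. The 1 member behind the count is Ccl5.

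**Figure D1:**
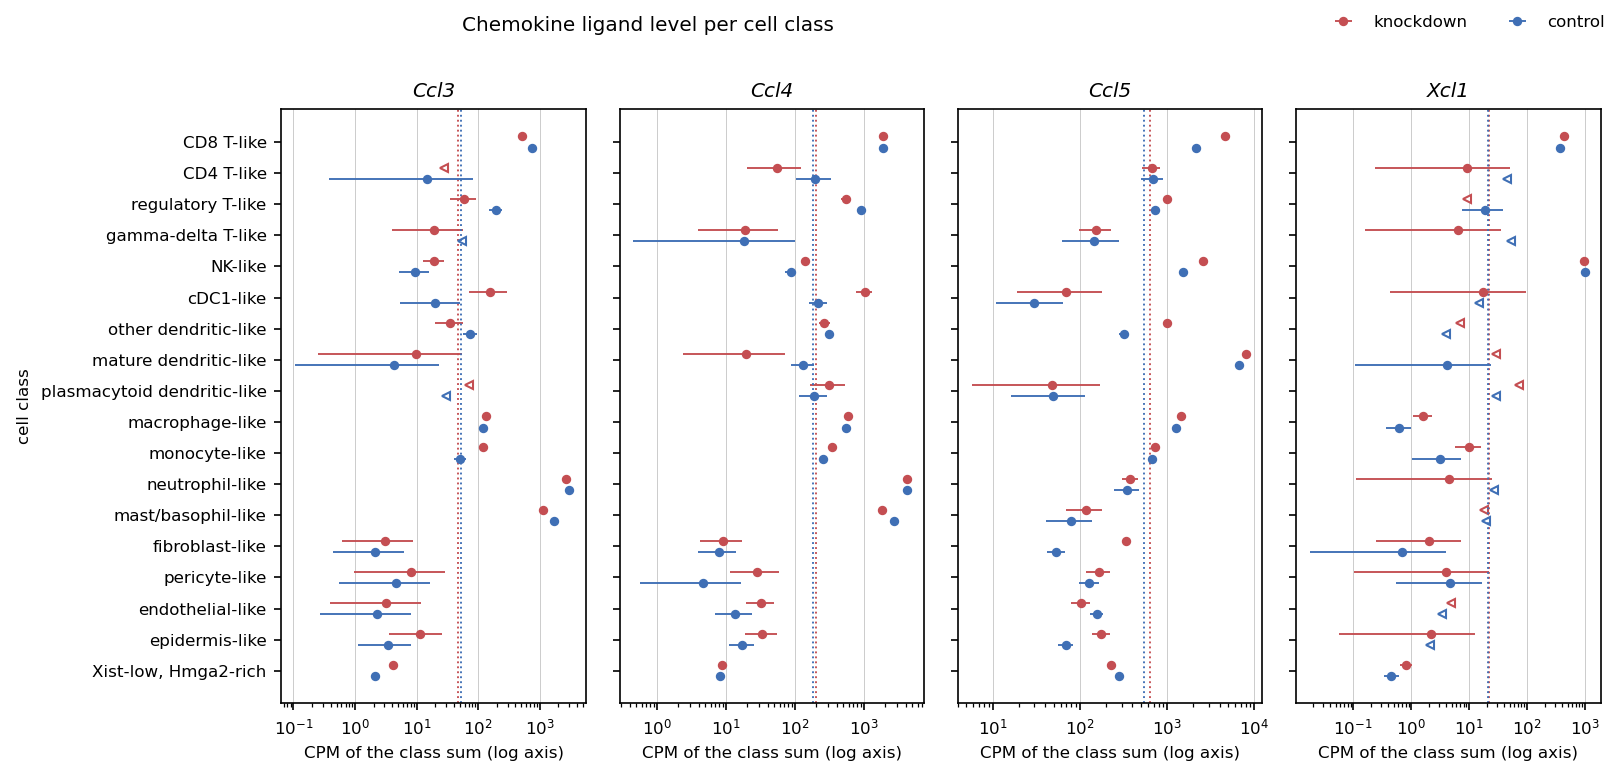
Level of the 4 ligands per cell class, in CPM of the class sum on a log axis, with 95% counting intervals. Knockdown points sit above control points, open triangles mark classes with 0 UMIs at the level of 3 UMIs, and dotted lines give the empty-droplet level of each library. Ccl5 in CD8 T-like cells shows 4583 CPM in the knockdown and 2118 CPM in the control, while Ccl4 there shows 1870 CPM in the knockdown and 1869 CPM in the control.

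Very few CD8 T-like cells carried most of the Ccl3, Ccl4 and Xcl1. For Ccl3, 18 of 1283 knockdown cells and 4 of 343 control cells held 50% of the UMIs. For Ccl4 it took 19 knockdown and 6 control cells, and for Xcl1 it took 10 knockdown and 3 control cells. Ccl5 was spread more widely, since 145 knockdown and 26 control cells were needed to reach 50% of it. The top knockdown cell held 7.11% of its library's CD8 T-like Ccl3, and the top control cell held 18.2%. For Xcl1 the top knockdown cell held 9.85% and the top control cell held 25.4%. Without the top cell of each library the Ccl3 ratio was 0.79 and the Xcl1 ratio was 1.40. Both values lie outside the counting intervals over all cells.

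**Figure D2:**
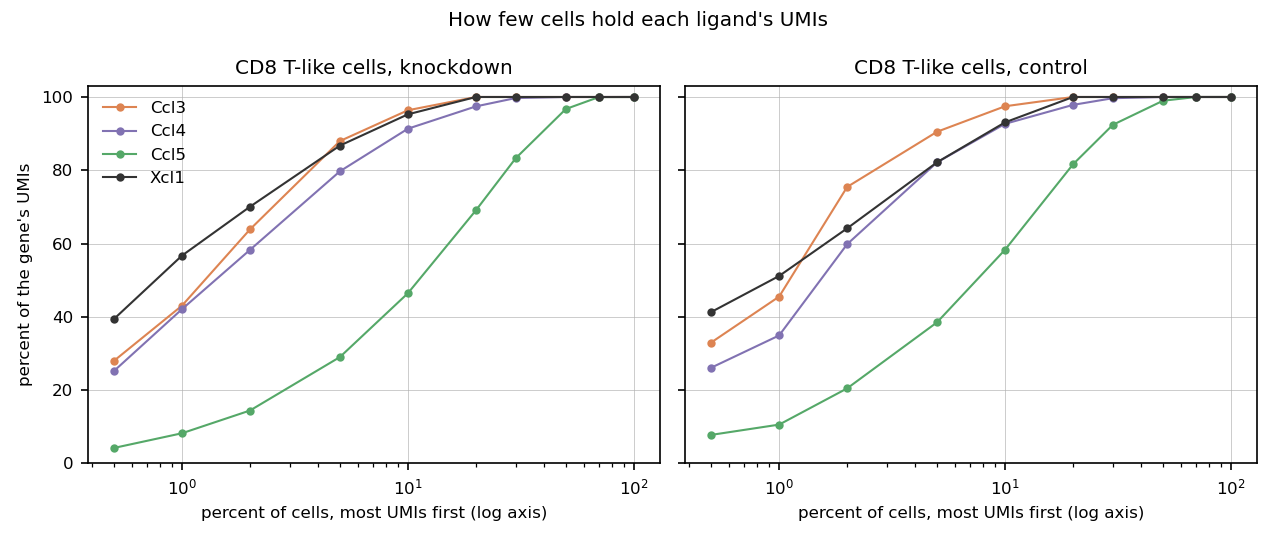
Share of each ligand's UMIs (vertical axis, percent) held by the cells with the most UMIs (horizontal axis, percent of CD8 T-like cells, log axis), with the knockdown on the left and the control on the right. At 5% of cells the knockdown curves stand at 88.0% for Ccl3, 79.7% for Ccl4, 86.7% for Xcl1 and 29.0% for Ccl5, and the control curves at 90.5% for Ccl3, 82.2% for Ccl4, 82.2% for Xcl1 and 38.5% for Ccl5.

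Ccl3, Ccl4 and Xcl1 each peaked in 1 cluster of CD8 T-like cells, L12, even though the 6 members were kept out of the clustering. L12 was singled out after its values were seen. It held 31 knockdown and 10 control cells, or 2.42% of the knockdown and 2.92% of the control CD8 T-like class, and Ifng, which encodes the cytokine interferon gamma, was among its leading genes. Ccl4 reached 32793 CPM in knockdown and 32784 CPM in control L12 cells. Ccl3 reached 8765 CPM in knockdown and 10238 CPM in control L12 cells (ratio 0.86). Xcl1 reached 6714 CPM in knockdown and 4864 CPM in control L12 cells (ratio 1.38). Ccl5 in the same cluster was at 6290 CPM in the knockdown and 2072 CPM in the control (ratio 3.04). Without L12 the ratio for Xcl1 in CD8 T-like cells became 0.96, so its direction there rested on these 31 knockdown and 10 control cells.

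Ccl4 was found more often in cells with Ccl3 than in cells without it. Among thinned CD8 T-like cells with a Ccl3 UMI, 74.7% of 87 knockdown cells and 88.9% of 27 control cells also held Ccl4. Among cells without Ccl3 the share was 12.6% in the knockdown and 10.4% in the control. In the knockdown 28.7% of the cells with Ccl3 held Xcl1, against 4.35% of the cells without it. In the control 2 of 27 Ccl3 cells held Xcl1, or 7.41%, against 6.01% of the cells without Ccl3. At 1000 UMIs per cell 33.1% of knockdown cells with Ccl3 held Xcl1, against 8.17% of those without, and in the control it was 6 of 28 cells, or 21.4%, against 9.29%.

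NK-like cells had the highest Xcl1 level of any class. Xcl1 was at 959 CPM in the knockdown (1292 UMIs in 457 cells) and 1018 CPM in the control (1523 UMIs in 263 cells), and the interval of the ratio of 0.94 (0.87 to 1.01) holds 1. After thinning, 19.5% of knockdown and 20.5% of control NK-like cells held Xcl1. The same share was 0.0483% of knockdown and 0.0474% of control macrophage-like cells, whose median depth of 4173 UMIs in the knockdown and 6437 UMIs in the control was higher. Next in level came CD8 T-like cells. Every other named class lay within or below the counting interval of the empty droplets, which held 21.7 CPM of Xcl1 in the knockdown and 21.0 CPM in the control.

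Xcl1 and Ccl5 were high in different NK-like clusters. Cluster L2, rich in the granzymes Gzmc to Gzmg, held 1210 CPM of Xcl1 in the knockdown and 1067 CPM in the control. Its Ccl5 was at 197 CPM in the knockdown and 140 CPM in the control. Cluster L4, led by Gzma and Klra8, held 297 CPM of Xcl1 in the knockdown and 452 CPM in the control. Its Ccl5 was at 8478 CPM in the knockdown and 8624 CPM in the control. The smaller cluster L11 resembled L2, with 1323 CPM of Xcl1 in the knockdown and 1333 CPM in the control. Single cells showed the same split: of thinned NK-like cells with Ccl5, 6.52% in the knockdown and 13.5% in the control held Xcl1. Of those without Ccl5, 28.2% in the knockdown and 24.1% in the control held it.

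For the NK-like class as a whole Ccl5 was at 2562 CPM in the knockdown and 1504 CPM in the control (ratio 1.70, interval 1.61 to 1.80). L4 made up 48.1% of knockdown and 36.5% of control NK-like cells. Within clusters the Ccl5 ratio was 0.98 in L4, 1.41 in L2 and 0.19 in L11, which rests on 5 knockdown and 54 control UMIs. With the clusters held at the control's mixture the class ratio was 0.99. Ccl3 in NK-like cells was at 19.3 CPM in the knockdown and 9.36 CPM in the control, and Ccl4 was at 140 CPM in the knockdown and 86.9 CPM in the control, all below the empty droplets. Of 5 members with at least 20 UMIs, 3 were at least 1.5 times higher in knockdown NK-like cells, against 11.7% of all genes, and 2 of those 3 are Ccl3 and Ccl4. None was at least 1.5 times lower, against 6.78% of all genes.

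**Figure D3:**
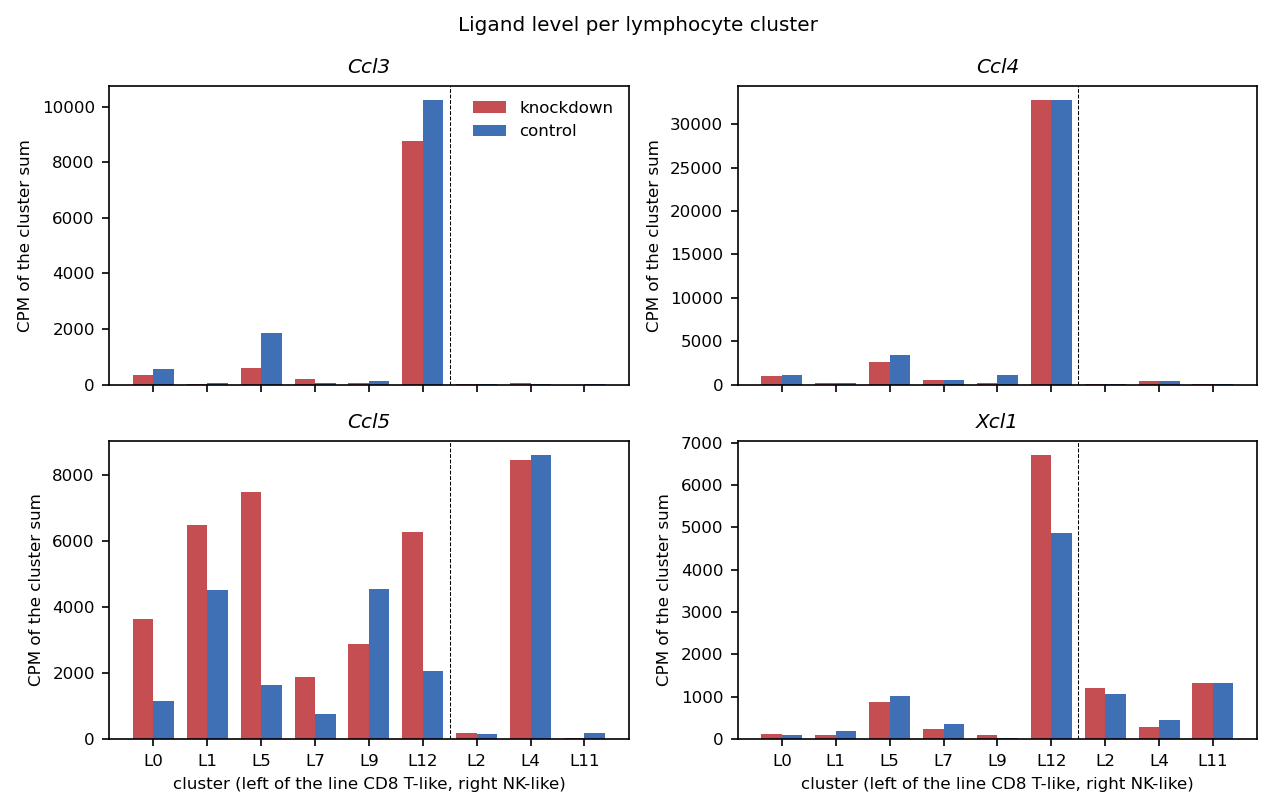
Level of the 4 ligands in each lymphocyte cluster, in CPM of the cluster sum, with knockdown bars left of control bars. The dashed line parts the 6 CD8 T-like clusters from the 3 NK-like clusters. Ccl3, Ccl4 and Xcl1 peak in L12, where Ccl4 stands at 32793 CPM in the knockdown and 32784 CPM in the control, while Ccl5 peaks in L4 at 8478 CPM in the knockdown and 8624 CPM in the control.

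Of the 12 genes on the effector list, all of which passed 20 UMIs in CD8 T-like cells, 0 were at least 1.5 times higher in the knockdown and 3 were at least 1.5 times lower. Over all genes the shares were 13.0% higher and 5.74% lower. Gzma, a granzyme that cytotoxic granules carry, was at 595 CPM in the knockdown and 963 CPM in the control (ratio 0.62). Gzmb, the granzyme that cleaves caspases, was at 833 CPM in the knockdown and 1281 CPM in the control (ratio 0.65). Lta, which encodes lymphotoxin alpha, had 33 UMIs in the knockdown and 43 UMIs in the control (ratio of the CPM 0.33). For 7 of the 12 the ratio was above 1, from 1.03 to 1.34, and Fasl, the death ligand gene, had an interval above 1 (74.6 CPM in the knockdown and 55.7 CPM in the control, interval 1.02 to 1.77). Nkg7, a granule protein gene, was at 1755 CPM in the knockdown and 1707 CPM in the control. Ifng was at 570 CPM in the knockdown and 763 CPM in the control (ratio 0.75). The list's median log2 ratio was 0.07, the same as over all genes tested.

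Of 15 transcription factors of effector lymphocytes, all of which passed 20 UMIs in CD8 T-like cells, 0 were higher and 1 was lower by at least 1.5 times. The shares over all genes were 13.0% higher and 5.74% lower. Tcf7, a factor of naive and stem-like T cells, was at 37.3 CPM in the knockdown and 61.9 CPM in the control. Runx3, a factor of CD8 identity, was at 391 CPM in the knockdown and 366 CPM in the control. Tox, a factor of exhausted T cells, was at 235 CPM in the knockdown and 266 CPM in the control, and Zeb2, a factor of terminal effectors, was at 194 CPM in the knockdown and 169 CPM in the control.

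Of the 10 activation genes 0 were higher and 1 was lower in CD8 T-like cells, against 13.0% and 5.74% of all genes. The lower gene was Tnfrsf4 (OX40), at 81.6 CPM in the knockdown and 165 CPM in the control. Tnfrsf9 (4-1BB) was at 369 CPM in the knockdown and 457 CPM in the control, Icos was at 368 CPM in the knockdown and 281 CPM in the control, and Irf8 was at 228 CPM in the knockdown and 182 CPM in the control. The median log2 ratio was 0.10 for the transcription factors and -0.07 for the activation genes, against 0.07 over all genes. Of the 5 related CC chemokine genes Ccl6, Ccl7, Ccl8, Ccl9 and Ccl11, 4 had at least 20 UMIs, and 2 were higher and 0 lower. Ccl8 was at 86.9 CPM in the knockdown and 34.0 CPM in the control, and Ccl9 was at 17.3 CPM in the knockdown and 5.41 CPM in the control.

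NK-like cells had 10 effector genes with at least 20 UMIs, of which 2 were at least 1.5 times higher and 3 lower. Over all genes of this class the shares were 11.7% higher and 6.78% lower. Ifng was at 63.1 CPM in the knockdown and 40.1 CPM in the control, and Lta was at 9.65 CPM in the knockdown and 4.68 CPM in the control on 13 knockdown and 7 control UMIs. Prf1, which encodes the pore-forming perforin, was at 481 CPM in the knockdown and 728 CPM in the control. Gzmb was at 1182 CPM in the knockdown and 1968 CPM in the control, and Gzmk had 1 UMI in the knockdown and 19 UMIs in the control. Gzma was at 2592 CPM in the knockdown and 3319 CPM in the control, and Nkg7 was at 1236 CPM in the knockdown and 1522 CPM in the control. The list's median log2 ratio was -0.25, against 0.06 over all genes. In NK-like cells the 9 NK markers summed to 4699 CPM in the knockdown and 5761 CPM in the control, the 8 T markers to 716 CPM in the knockdown and 525 CPM in the control, and the 11 macrophage and monocyte markers to 836 CPM in the knockdown and 525 CPM in the control, with all detected in both. Gzma is among the NK markers as well as on the effector list, so the NK sum and the list share its UMIs. The part of these marker sums in the list's values, and that of the larger share of L4 in the knockdown, was not tested. Flt3l, the growth factor of dendritic cells, was at 20.6 CPM in knockdown and 34.8 CPM in control CD8 T-like cells (ratio 0.59, interval 0.40 to 0.89). In NK-like cells it was at 46.0 CPM in the knockdown and 52.1 CPM in the control.

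Regulatory T-like cells held Ccl5 at 1004 CPM in the knockdown (213 cells) and 731 CPM in the control (142 cells), with a ratio of 1.37 and an interval of 1.17 to 1.62. Their Ccl4 was at 544 CPM in the knockdown and 899 CPM in the control (ratio 0.61), but 1 control cell held 65.0% of the control UMIs, and without the top cell of each library the ratio was 1.33. Xcl1 had 0 UMIs in knockdown and 7 UMIs in control regulatory T-like cells, and the limit that the count of 0 allows is 9.27 CPM. Of 3 members with at least 20 UMIs there, 0 were higher and 2 were lower by at least 1.5 times, against 10.7% and 12.3% of all genes. The other was Ccl3, at 58.7 CPM in the knockdown and 192 CPM in the control (ratio 0.306), and 0.731 without the top cells, so without them neither was lower by 1.5 times. In CD4 T-like cells, 51 in the knockdown and 21 in the control, Ccl5 was at 666 CPM in the knockdown and 680 CPM in the control. In gamma-delta T-like cells, 105 in the knockdown and 24 in the control, it was at 153 CPM in the knockdown and 143 CPM in the control, below the empty droplets.

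Most of the Ccl3, Ccl4 and Ccl5 RNA lay outside lymphocytes. Macrophage-like and monocyte-like cells together held 48.0% of the Ccl3 UMIs of kept cells in the knockdown and 63.2% in the control. They held 57.0% of the Ccl4 in the knockdown and 75.6% in the control, and 39.5% of the Ccl5 in the knockdown and 50.5% in the control. Lymphocytes held 28.4% of the Ccl3 in the knockdown and 18.6% in the control, and 29.5% of the Ccl4 in the knockdown and 13.3% in the control. They held 24.6% of the Ccl5 in the knockdown and 7.12% in the control. Xcl1 stood apart, with 93.8% of its UMIs in knockdown lymphocytes and 94.9% in control lymphocytes. CD8 T-like cells held 46.8% of all Xcl1 in the knockdown and 22.6% in the control, and NK-like cells held 46.9% in the knockdown and 72.0% in the control.

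**Figure D4:**
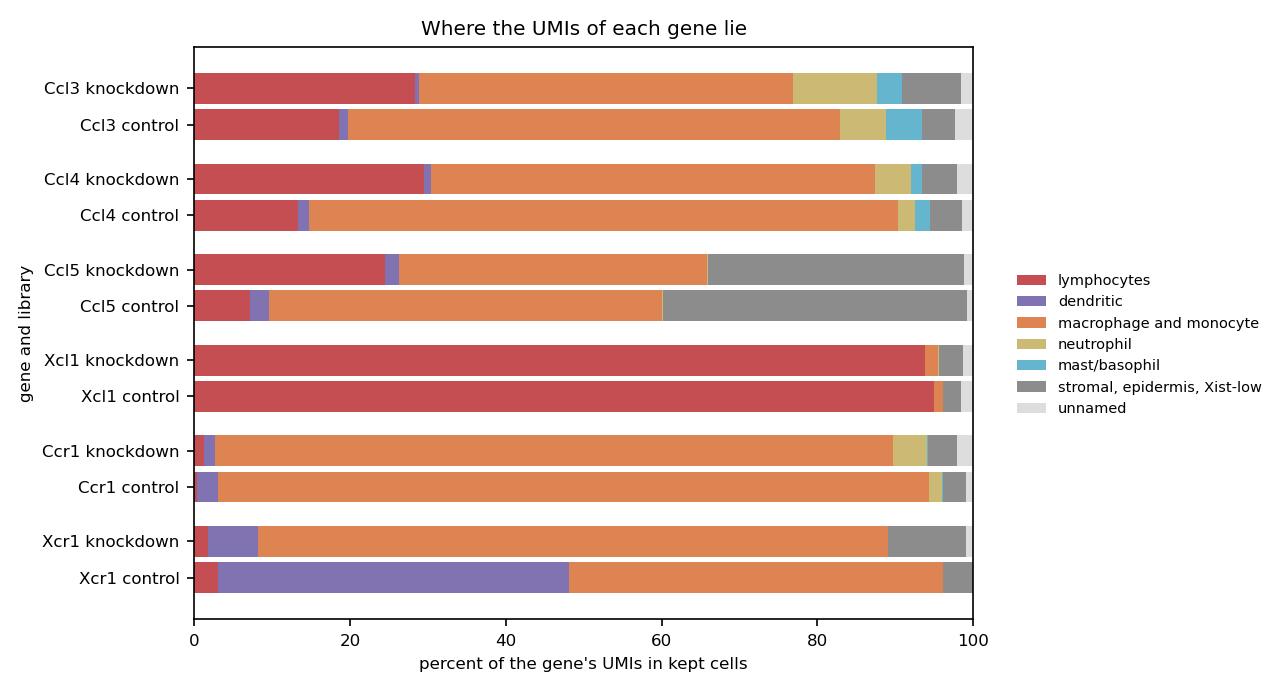
Share of each gene's UMIs in kept cells (horizontal axis, percent) by group of cell classes, with the knockdown bar above the control bar for each gene. Lymphocytes hold 24.6% of the knockdown and 7.12% of the control Ccl5 and 93.8% of the knockdown and 94.9% of the control Xcl1, and macrophage-like and monocyte-like cells hold 87.0% of the knockdown and 91.2% of the control Ccr1.

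The number of lymphocytes differed between the libraries along with these shares. CD8 T-like cells made up 8.39% of the knockdown cells (7.95% to 8.84%) and 3.12% of the control cells (2.80% to 3.46%), and NK-like cells made up 2.99% of the knockdown and 2.39% of the control cells. Over all kept cells Xcl1 was at 21.0 CPM in the knockdown and 14.7 CPM in the control (ratio 1.43). Counted per cell, which also carries the lower depth of the knockdown, Xcl1 had 180 UMIs per 1000 cells in the knockdown and 192 UMIs per 1000 cells in the control (ratio 0.936). With the control's UMIs per cell of each class and the knockdown's mixture of classes, Xcl1 per cell came to 1.56 times the control value. With the knockdown's UMIs per cell and the control's mixture it came to 0.573 times. For Ccl3, Ccl4 and Ccl5 the mixture alone gave 1.18, 1.0004 and 0.98, the measured ratios per cell were 0.726, 0.669 and 0.691, and the CPM ratios over all kept cells were 1.11, 1.02 and 1.06. For Ccr1 the mixture alone gave 0.78 and the ratio per cell was 0.450, with 29.3 CPM in the knockdown and 42.6 CPM in the control (ratio 0.69).

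Macrophage-like cells, the largest single source of all 3 CC ligands, gave similar ligand levels in the 2 libraries. Ccl5 was at 1439 CPM in the knockdown (27220 UMIs in 4143 cells) and 1264 CPM in the control (36644 UMIs in 4217 cells), with a ratio of 1.14 and an interval of 1.12 to 1.16. Ccl4 was at 583 CPM in the knockdown and 556 CPM in the control (ratio 1.05, interval 1.02 to 1.07). Ccl3 was at 132 CPM in the knockdown and 119 CPM in the control (ratio 1.12, interval 1.06 to 1.18). Among the 11 macrophage-like clusters the knockdown was higher for Ccl5 in 5 and lower in 2, and for Ccl4 it was higher in 5 and lower in 4. Ccl5 was highest in M2, whose leading genes include Ly6c2 and MHC class II genes, at 3956 CPM in the knockdown and 3808 CPM in the control. Ccl3 was highest in M0, led by Cxcl2 and Il1b, at 418 CPM in the knockdown and 311 CPM in the control, as was Ccl4, at 1416 CPM in the knockdown and 1089 CPM in the control.

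Of the 6 members, 2 were at least 1.5 times higher in knockdown macrophage-like cells and 0 were lower, against 8.94% and 3.38% of all genes. They were Xcl1, on 30 knockdown and 18 control UMIs, and Xcr1, on 89 knockdown and 63 control UMIs. The 13 inflammatory genes that accompany Ccl3 and Ccl4 gave 2 higher and 0 lower there, with a median log2 ratio of 0.29 against 0.05 over all genes. Egr1, an immediate early factor, was at 80.4 CPM in the knockdown and 36.0 CPM in the control. Cxcl2, a neutrophil chemokine, was at 767 CPM in the knockdown and 436 CPM in the control. Il1b, an inflammasome product, was at 423 CPM in the knockdown and 348 CPM in the control, and Plek was at 338 CPM in the knockdown and 344 CPM in the control. Of the 5 related CC chemokine genes, 2 were higher and 0 lower. Ccl8 was at 1893 CPM in the knockdown and 1120 CPM in the control (ratio 1.69), Ccl11 had 13 knockdown and 10 control UMIs, and Ccl7 was at 496 CPM in the knockdown and 478 CPM in the control.

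Monocyte-like cells differed most for Ccl3 among the CC ligands. It was at 119 CPM in the knockdown (190 UMIs in 719 cells) and 50.3 CPM in the control (80 UMIs in 433 cells), with a ratio of 2.36 and an interval of 1.81 to 3.102, and it was higher in 3 of 3 clusters. Ccl3 in the empty droplets was at 46.6 CPM in the knockdown and 53.1 CPM in the control, so the control level lay at its background. The 7 neutrophil markers summed to 134 CPM in knockdown and 140 CPM in control monocyte-like cells, and 0 of them in the knockdown and 2 in the control were at 0. Ccl4 was at 346 CPM in the knockdown and 252 CPM in the control (ratio 1.37, interval 1.20 to 1.56). Ccl5 was at 724 CPM in the knockdown and 673 CPM in the control (ratio 1.08, interval 0.99 to 1.17). Of 5 members with at least 20 UMIs, 2 were higher by at least 1.5 times and 0 were lower, against 9.94% and 8.77% of all genes, and the other member was Xcl1 on 16 knockdown and 5 control UMIs, with a ratio of 1.49 without the top cells.

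Of the 13 inflammatory genes 5 were at least 1.5 times higher in knockdown monocyte-like cells and 0 were lower, against 9.94% and 8.77% of all genes. The list's median log2 ratio was 0.47 against -0.01 over all genes. Tnf, which encodes tumour necrosis factor, was at 131 CPM in the knockdown and 45.3 CPM in the control. Il1a, an alarmin cytokine, was at 28.7 CPM in the knockdown and 8.81 CPM in the control, and Cxcl2 was at 867 CPM in the knockdown and 361 CPM in the control. Il1b was at 1591 CPM in the knockdown and 1151 CPM in the control, and Nfkbia, an NF-kB inhibitor, was at 644 CPM in the knockdown and 547 CPM in the control. The shift of this list was not particular to myeloid cells. Its median was 0.83 in fibroblast-like cells (all genes -0.06) and 0.42 in Xist-low, Hmga2-rich cells (0.08). It was 0.41 in NK-like cells (0.06) and 0.34 in CD8 T-like cells (0.07). In regulatory T-like cells it was lower, at -0.20 (all genes -0.01).

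Neutrophil-like cells had the highest level of Ccl3 and of Ccl4 of any class, in 195 knockdown and 61 control cells. Ccl4 was at 4128 CPM in the knockdown and 4265 CPM in the control (ratio 0.97, interval 0.87 to 1.08). Ccl3 was at 2687 CPM in the knockdown and 2967 CPM in the control (ratio 0.91, interval 0.79 to 1.04). Thinned cells held Ccl3 in 48.7% of the knockdown and 47.5% of the control. Both ratio intervals hold 1. With a minimum of 2000 UMIs per cell, which leaves 6 knockdown and 8 control cells, the Ccl4 ratio was 1.96. None of the 4 members with at least 20 UMIs passed 1.5-fold in either direction, against 17.7% of all genes higher and 18.9% lower.

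The inflammatory genes of neutrophil-like cells gave 0 higher and 1 lower of 11 with at least 20 UMIs, against 17.7% and 18.9% of all genes. The list's median log2 ratio was 0.19 against -0.04 over all genes. Atf3, a stress-induced factor, was at 554 CPM in the knockdown and 844 CPM in the control. Cxcl2 was at 17137 CPM in the knockdown and 11469 CPM in the control, and Il1b was at 6536 CPM in the knockdown and 7087 CPM in the control. Of the 3 related CC chemokine genes with at least 20 UMIs, 0 were higher and 2 were lower. Ccl6 was at 497 CPM in the knockdown and 1053 CPM in the control, and Ccl9 was at 57.6 CPM in the knockdown and 218 CPM in the control. The 11 macrophage and monocyte markers summed to 3685 CPM in knockdown and 10026 CPM in control neutrophil-like cells, and their part in these values was not tested.

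Mast/basophil-like cells followed for Ccl3, with 1124 CPM in the knockdown and 1680 CPM in the control (ratio 0.669, or 0.628 without the top cell of each library). Their Ccl4 was at 1802 CPM in the knockdown and 2764 CPM in the control (ratio 0.652). In them Ccl3 and Ccl4 came mostly from cluster M23, led by Hdc and Mcpt8, with 7 knockdown and 12 control cells and 23793 CPM of Ccl4 in the knockdown and 11347 CPM in the control. Within that cluster the Ccl4 ratio was 2.10. The cluster was 15.2% of knockdown and 29.3% of control mast/basophil-like cells.

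Mature dendritic-like cells, marked by Ccr7 and Ccl22, had the highest Ccl5 level of all classes. It was at 7983 CPM in the knockdown (39 cells) and 6614 CPM in the control (57 cells), with a ratio of 1.21 and an interval of 1.11 to 1.31. Of 2 members with at least 20 UMIs there, 0 were higher and 1 was lower, Ccl4 on 2 knockdown and 31 control UMIs, against 11.2% of all genes higher and 19.5% lower. The other dendritic-like cells, without cDC1 and plasmacytoid cells, held Ccl5 at 999 CPM in the knockdown and 320 CPM in the control (ratio 3.13, interval 2.66 to 3.68), and 1 of 127 knockdown cells held 33.0% of it. With doublets kept the ratio was 1.61. Cluster D0 was 31.5% of knockdown and 52.1% of control cells of this class, and D3 was 36.2% of knockdown and 17.6% of control cells. The Ccl5 ratio was 4.56 in D0, 9.35 in D2 on 24 knockdown and 4 control UMIs, and 1.03 in D3. Of 4 members with at least 20 UMIs in them, 1 was higher and 2 were lower, against 11.5% and 11.2% of all genes. The lower members were Ccr1, given below, and Ccl3, on 15 knockdown and 56 control UMIs. For Ccl3, 1 control cell held 50% of the control UMIs, and without the top cells the ratio was 0.62, against 0.47. Its level was 34.8 CPM in the knockdown and 74.6 CPM in the control. Empty droplets held 46.6 CPM in the knockdown and 53.1 CPM in the control. In cDC1-like cells Ccl5 had 4 UMIs in the knockdown and 6 UMIs in the control. Ccl4 in cDC1-like cells had 59 UMIs in the knockdown and 44 UMIs in the control, and 1 knockdown cell held 81.4% of the knockdown UMIs. Without the top cells its ratio was 1.42, against 4.69 with all cells.

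Ordered by level, Ccl5 ran from mature dendritic-like cells through CD8 T-like, NK-like and macrophage-like cells in both libraries, with no overlap of the counting intervals between these neighbours. Ccl4 ran from neutrophil-like cells to CD8 T-like cells and mast/basophil-like cells in the knockdown, where the intervals of the last 2 overlap, and mast/basophil-like cells stood next after neutrophil-like cells in the control. For Ccl3 the order was neutrophil-like, mast/basophil-like and CD8 T-like cells in both.

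The Xist-low, Hmga2-rich cells held 32.1% of the knockdown and 38.5% of the control Ccl5 UMIs, in 7133 knockdown and 4444 control cells. Their Ccl5 level was 228 CPM in the knockdown and 278 CPM in the control (ratio 0.82, interval 0.80 to 0.83), below the empty droplets of either library. It was not even, since 284 knockdown and 175 control cells held 50% of it, and the top cell held 195 UMIs in the knockdown and 417 UMIs in the control. Across 8 clusters the ratio ran from 0.58 to 1.51. Ccl3 was at 4.06 CPM in the knockdown and 2.14 CPM in the control, Ccl4 at 8.59 CPM in the knockdown and 8.11 CPM in the control, and Xcl1 at 0.82 CPM in the knockdown and 0.45 CPM in the control, all under the empty droplets. Of 5 members with at least 20 UMIs 2 were at least 1.5 times higher, Ccl3 and Xcl1, against 14.9% of all genes, and 0 were lower, against 5.27%. For Ccl3 1 knockdown cell held 35.8% of the UMIs and 1 control cell held 15.4%, and without both the ratio was 1.44.

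Among the receptors, Ccr1 was a gene of myeloid cells, and its level was lower in knockdown monocyte-like, macrophage-like and other dendritic-like cells, with intervals below 1. Neutrophil-like cells had the highest level, 745 CPM in the knockdown (168 UMIs) and 926 CPM in the control (102 UMIs), where 1 control cell held 18.6% of them. The interval of that ratio of 0.80 (0.63 to 1.04) holds 1, and with a minimum of 2000 UMIs per cell, which leaves 6 knockdown and 8 control cells, the ratio was 1.79. Monocyte-like cells were at 178 CPM in the knockdown and 234 CPM in the control (ratio 0.76, interval 0.65 to 0.89). Macrophage-like cells were at 162 CPM on 3055 UMIs in the knockdown and 180 CPM on 5224 UMIs in the control (ratio 0.90, interval 0.86 to 0.94). The other dendritic-like cells were at 118 CPM in the knockdown and 200 CPM in the control (ratio 0.59, interval 0.42 to 0.82).

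The order of the Ccr1 level was neutrophil-like, monocyte-like, then macrophage-like in the knockdown, where the intervals of monocyte-like and macrophage-like cells overlap. In the control the other dendritic-like cells stood between monocyte-like and macrophage-like cells, with intervals that overlap both. In CD8 T-like cells Ccr1 was at 9.32 CPM in the knockdown and 6.96 CPM in the control, and in NK-like cells it was at 8.16 CPM in the knockdown and 6.02 CPM in the control. Empty droplets held 28.6 CPM in the knockdown and 51.3 CPM in the control. Of all Ccr1 UMIs 87.0% in the knockdown and 91.2% in the control lay in macrophage-like and monocyte-like cells. Within macrophage-like cells 0 of 11 clusters were higher and 3 were lower by their intervals, with ratios from 0.66 to 1.12.

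Ccrl2, a chemerin-binding receptor of activated myeloid cells, was at 119 CPM in knockdown and 112 CPM in control macrophage-like cells. In neutrophil-like cells it was at 1884 CPM in the knockdown and 1343 CPM in the control. In monocyte-like cells it was at 152 CPM in the knockdown and 97.5 CPM in the control (ratio 1.56, interval 1.27 to 1.92).

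**Figure D5:**
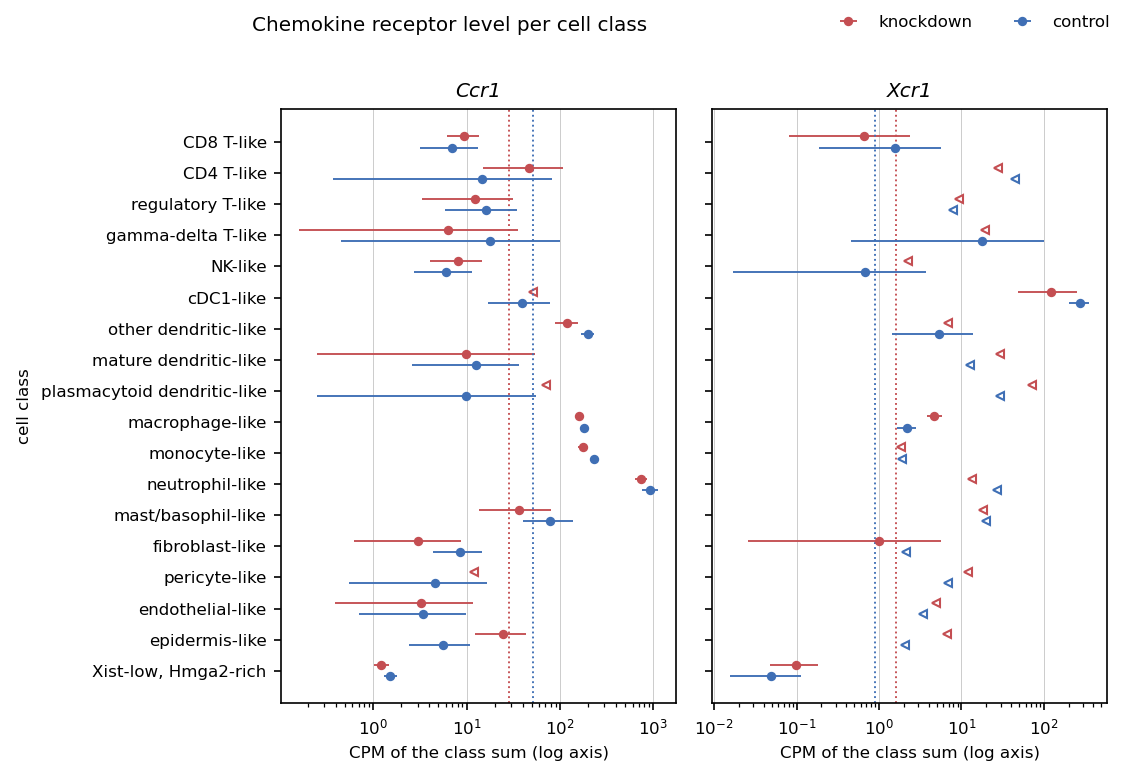
Level of Ccr1 and Xcr1 per cell class, in CPM of the class sum on a log axis, with 95% counting intervals and knockdown points above control points. Open triangles mark classes with 0 UMIs at the level of 3 UMIs, and dotted lines give the empty-droplet level. Ccr1 is highest in neutrophil-like cells, at 745 CPM in the knockdown and 926 CPM in the control, and Xcr1 is highest in cDC1-like cells, at 121 CPM in the knockdown and 272 CPM in the control.

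Xcr1 rested on few cells. The cDC1-like class, marked by Clec9a and Wdfy4, held 16 knockdown cells, 0.105% of the library (0.0598% to 0.170%), and 22 control cells, 0.200% (0.125% to 0.303%). Xcr1 had 7 UMIs in 3 knockdown cells and 55 UMIs in 15 control cells, or 121 CPM in the knockdown and 272 CPM in the control (ratio 0.45, interval 0.17 to 0.98). Median depth was 3419 UMIs in the knockdown and 8025.5 UMIs in the control cells. When cells were thinned to 500 UMIs, 12.5% of knockdown and 9.09% of control cells held Xcr1, which is 2 cells in each library and too few to compare. Of 2 members with at least 20 UMIs in this class, 1 was higher by at least 1.5 times, Ccl4, and 1 was lower, Xcr1, against 17.3% and 22.7% of all genes.

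Other genes of the cDC1 programme were measured in the same cells. The list holds all 9 cDC1 markers that were used to name the class, so its values are not independent of the naming. Of 11 genes with at least 20 UMIs 1 was at least 1.5 times higher in the knockdown and 4 were lower, against 17.3% and 22.7% of all genes. The list's median log2 ratio was -0.42 against -0.03 over all genes. Irf8, the factor that specifies cDC1, was at 1192 CPM in the knockdown and 1601 CPM in the control, and Id2 was at 847 CPM in the knockdown and 1042 CPM in the control. Wdfy4, needed for cross-presentation, was at 622 CPM in the knockdown and 1042 CPM in the control (ratio 0.60, interval 0.41 to 0.85). Cadm1, an adhesion molecule of cDC1, was at 69.1 CPM in the knockdown and 143 CPM in the control (ratio 0.483), and Itgae, an integrin, was at 121 CPM in the knockdown and 193 CPM in the control (ratio 0.628). Flt3, the receptor of the dendritic growth factor, was at 207 CPM in the knockdown and 133 CPM in the control. The intervals of Cadm1, Itgae and Flt3 hold 1. In the same class the 11 macrophage and monocyte markers summed to 1141 CPM in the knockdown and 2776 CPM in the control, with 1 of them at 0 in each, and free RNA came to a median of 39.5% of the empty-droplet level in the knockdown and 23.4% in the control. Their part in these values was not tested.

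In both libraries a large share of the Xcr1 UMIs lay outside the cDC1-like class. Macrophage-like cells held 89 UMIs in 68 knockdown cells and 63 UMIs in 47 control cells, which is 80.9% of the Xcr1 of kept cells in the knockdown and 48.1% in the control. The level was 4.71 CPM in the knockdown and 2.17 CPM in the control (ratio 2.17, interval 1.55 to 3.04). Empty droplets held 1.59 CPM on 3 UMIs in the knockdown and 0.89 CPM on 2 UMIs in the control. After thinning, 0.338% of 4143 knockdown and 0.0474% of 4217 control macrophage-like cells held Xcr1. These shares rest on few cells, so the size of their difference is uncertain. Cluster M1, led by Cd72 and Ms4a7, held it at 12.5 CPM in the knockdown and 8.94 CPM in the control, and M5, led by Arl6ip1 and Slamf9, held it at 8.70 CPM in the knockdown and 2.12 CPM in the control. Monocyte-like cells held 0 UMIs in both libraries, which allows at most 1.87 CPM in the knockdown and 1.89 CPM in the control.

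The 11 macrophage and monocyte markers were also used to name the macrophage-like class, so their sums are not independent of the naming. In macrophage-like cells with an Xcr1 UMI they summed to 27199 CPM in the knockdown and 33498 CPM in the control. In those without Xcr1 they summed to 37695 CPM in the knockdown and 41408 CPM in the control. In the cells with Xcr1 the 9 cDC1 markers summed to 811 CPM in the knockdown and 515 CPM in the control, with 1 of them in the knockdown and 2 in the control at 0. In macrophage-like cells without Xcr1 these markers summed to 636 CPM in the knockdown and 568 CPM in the control. In the cDC1-like cells with Xcr1 these markers summed to 6993 CPM in the knockdown and 5107 CPM in the control. Clec9a was at 2.32 CPM in knockdown and 1.96 CPM in control macrophage-like cells without Xcr1. In those with Xcr1 Clec9a was at 9.86 CPM on 4 UMIs in the knockdown and 5.21 CPM on 2 UMIs in the control. Their median depth was 5745.5 UMIs in the knockdown and 7224 UMIs in the control, against 4148 UMIs in knockdown and 6418 UMIs in control macrophage-like cells without Xcr1. The part of doublets or free RNA in these UMIs was not tested.

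Across 34 sums of a class in a library, each of at least 20 cells, the pattern of each member was compared with 8662 genes that reached 50 CPM in at least 1 sum, by Pearson's r of log2(CPM + 10). The sums share libraries and depth, so the values are descriptive. Ccl3 and Ccl4 were most like each other, with r = 0.91. The genes most like Ccl3 after that were Plk3, Lilr4b, Tnfsf14 and Rabgef1, from 0.81 to 0.76, and those most like Ccl4 were Aim2, Plek, Myo1f and Prkcb, from 0.82 to 0.79. Ccl5 had the lowest top value, 0.82 with AW112010, followed by Adap1, Epsti1, Gm45716 and Stat3.

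Xcl1 followed the cytotoxic lymphocyte genes Samd3, Prf1, Eomes, Cd160 and Gzmf, with r from 0.95 to 0.92. Ccr1 followed the myeloid genes Nlrp3, Sirpb1b, Cd300lf, Trem1 and Hk3, with r from 0.95 to 0.91. Xcr1 followed Ffar4 at 0.93 and Sept3 at 0.91, then Hepacam2 at 0.75 and Plet1 at 0.70. Its values rest on the control sum of cDC1-like cells, since the knockdown's 16 cells were under the minimum.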

How the data were processed

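Each of the 2 tumour libraries was deposited as an unfiltered UMI count matrix, made by the authors with Cell Ranger per the submitters' processing notes and the file headers. No source states the build, the annotation or how reads shared by similar genes were counted. Kept barcodes had 500 UMIs or more, 250 genes or more, mitochondrial UMIs of 20% or less and a profile that differed from barcodes of 100 UMIs or fewer (1000 Dirichlet-multinomial draws, false discovery rate 0.01, with 3000 UMIs or more always kept). Of the barcodes with 500 UMIs, 10461 knockdown and 5304 control ones resembled empty droplets, and Scrublet in scanpy 1.11.5 removed 876 knockdown and 478 control doublets (5.42% of the knockdown and 4.17% of the control cells). The libraries held 174190399 UMIs in the knockdown and 177399315 UMIs in the control, and 75.2% of the knockdown and 81.2% of the control UMIs lay in kept cells.

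Clustering used 2000 variable genes without the 6 members, 30 principal components, 15 neighbours and Leiden at resolution 1 (leidenalg 0.10.2), with lymphoid, myeloid and dendritic cells clustered again. A marker counted at 20 CPM or more and at 25% or more of the highest cluster. A cluster took the class with the largest share of its markers, at least 3, with further minimums for subtypes, and clusters with both Xist and Ptprc under 20 CPM formed the Xist-low class. These minimums were chosen with the data in view and left 1.96% of knockdown and 1.93% of control cells unnamed, so other choices could move class names. The members, partner lists and markers were chosen with earlier results of these data known.

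CPM and ratios were computed here from the counts with exact Poisson, conditional and Clopper-Pearson intervals, and checked on simulated data. A gene is counted as higher or lower at 1.5-fold with at least 20 UMIs over both libraries. Named partner genes are the 3 of a list with the highest mean CPM in a class and up to 3 past 1.5-fold in each direction, and a few lists are given in part. A receptor and a gene with a pattern like that of a member are not reported here. Sequences and motif shares came from the RefSeq promoter table. The alternatives were other cell minimums, doublets kept, cell weighting, scaling, free RNA, clustering settings and clusters left out.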

Additional observations from a re-analysis of the deposited data

Results flagged for a closer look

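Over classes in which a member had at least 50 UMIs across both libraries, 4 of the 6 members had ratio intervals that lay above 1 in at least 1 class and below 1 in another, and the difference between the classes was not tested. Ccl3 had a ratio of 2.36 in monocyte-like cells and 0.306 in regulatory T-like cells, where 1 control cell held 65.3% of the control UMIs and the ratio was 0.731 without the top cell of each library. Ccl4 had a ratio of 4.69 in cDC1-like cells, where 1 of 16 knockdown cells held 81.4% of the UMIs, and 0.605 in regulatory T-like cells. Without the top cells these were 1.42 and 1.33. Ccl5 had a ratio of 6.36 in fibroblast-like cells, at 341 CPM in the knockdown and 53.7 CPM in the control, both below the empty droplets, and 0.649 in endothelial-like cells, where it was 0.746 without the top cells. The 9 NK markers summed to 113 CPM in the knockdown and 12.01 CPM in the control fibroblast-like cells. Free RNA there came to a median of 52.1% of the empty-droplet level in the knockdown and 23.9% in the control, with wide ranges over the marker lists. The part of these markers and of free RNA was not tested. Xcr1 had a ratio of 2.17 in macrophage-like cells and 0.445 in cDC1-like cells.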

How the results depend on the processing

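No paired analysis was possible because each group holds 1 library. For Ccl5 in CD8 T-like cells the ratio ran from 1.87 to 3.04 over all alternatives, and it was 1.87 with a minimum of 2000 UMIs per cell, 1.88 with every cell at the same weight, 2.07 with the median gene ratio set to 1, 2.37 with free RNA subtracted at the estimated share, 3.04 without cluster L1 and 1.89 without cluster L5. The choices of leaving out clusters L1, L5 and L12 and of holding the cluster mixture were added after the data were seen. For Ccl4 in CD8 T-like cells the ratio was 1.06 at 2000 UMIs, 0.88 at equal weight, 1.09 without the top cells and with free RNA subtracted, 0.90 without L12 and 0.90 at the control's cluster mixture. For Ccl3 in CD8 T-like cells it was 0.77 at 2000 UMIs, 0.79 without the top cells, 0.76 with free RNA subtracted, 0.56 without L12, 0.83 without L5 and 0.64 at the control's mixture. Xcl1 in NK-like cells gave 1.04 at 2000 UMIs, 0.81 at equal weight and 1.07 at the control's mixture. Ccr1 in macrophage-like cells gave 0.94 with free RNA subtracted, and Xcr1 in cDC1-like cells ran from 0.31 to 0.63. Among ratios whose interval did not hold 1, the direction turned round for Xcl1 in CD8 T-like cells without L12 (0.96) and for Ccl5 in NK-like cells at the control's mixture (0.99), and, without the top cell of each library, for Ccl4 in regulatory T-like cells (1.33, against 0.61) and in cells of unnamed clusters (0.974, against 1.46). Among ratios whose interval held 1, those that crossed it under some alternatives included Ccl4 in CD8 T-like cells, Xcl1 in NK-like cells, and, in neutrophil-like cells, Ccl3 (0.78 to 1.11), Ccl4 (0.80 to 1.96) and Ccr1 (0.72 to 1.79). Ccl5 in other dendritic-like cells ran from 1.61 with doublets kept to 4.73 with free RNA subtracted. The cause was not tested.

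The share of CD8 T-like cells with Ccl5 was 70.2% in the knockdown and 58.3% in the control without thinning, and 66.4% in the knockdown and 44.2% in the control at 1000 UMIs. For Xcl1 in NK-like cells it was 43.3% in the knockdown and 53.2% in the control without thinning, and 32.1% in the knockdown and 36.3% in the control at 1000 UMIs. The lymphocyte share of Ccl5 was 22.5% in the knockdown and 6.64% in the control with doublets kept, 27.3% in the knockdown and 7.68% in the control with 10% free RNA subtracted, and 15.8% in the knockdown and 5.75% in the control at 2000 UMIs. The class mixture alone gave 1.30 for Xcl1 at 2000 UMIs. Genes at least 1.5 times higher in CD8 T-like cells numbered 1299, or 2286 with no minimum, 662 at 50 UMIs and 508 at 2-fold, and those lower numbered 573, or 1857, 250 and 130. Of the effector list 1 gene was lower at 2-fold.

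The 2 libraries and their unequal depth limit every comparison. Counts of members in classes of few cells, cDC1-like above all, set the width of the intervals.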
